A study of Mus musculus with 61 samples.

Results

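The MTG family comprises 3 genes, Cbfa2t2 (MTGR1), Cbfa2t3 (MTG16) and Runx1t1 (MTG8), and the values below are the transcripts of these 3 genes out of 46078 in the count table. The family was chosen by a difference seen in these same samples, the rise of Cbfa2t3 in cells carrying Ngn3. The difference between cells with and without Ngn3 is therefore given for the 3 genes as a description and without a test. Only whether that difference varied between kinds of culture or between the factors beside Ngn3 was tested, for Cbfa2t2 and Cbfa2t3. RNA was sequenced from pools of 50 cells of C57BL/6 mouse pancreatic duct organoids, sorted by reporter 8 days after the vectors were induced. All cultures carried doxycycline-inducible lentiviruses for GFP-Ngn3, LSSOrange-Pdx1 and tdTomato-MafA, with the inducible promoter switched on by a transactivator under the PGK promoter and not by a cell-type promoter. WT cultures received wild-type Ngn3 and 6SA cultures received a phospho-mutant in which serines are changed to alanine. From each kind of culture, cells were sorted as Pdx1, MafA, or Pdx1 with MafA without the Ngn3 reporter (Ngn3-negative), and as Ngn3 with Pdx1, Ngn3 with MafA, or Ngn3 with both (Ngn3-positive), which makes 12 conditions. Cells with Ngn3 alone and uninfected cells were not analysed here, so each Ngn3-positive group is set against cells of the same kind of culture with the same other vectors.

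MTG proteins are nuclear adaptors that do not bind DNA themselves. They dock on DNA-binding factors, among them the E proteins that pair with proneural basic helix-loop-helix factors such as Ngn3, and bring in NCoR and Sin3 scaffolds and histone deacetylases, which lower transcription of the bound gene. Cbfa2t3 and Runx1t1 are best known in blood, where chromosome translocations fuse their human counterparts to RUNX1 in acute myeloid leukaemia. In the embryo the family is found in cells leaving the cell cycle under proneural factors, and Cbfa2t2 also acts in the intestinal epithelium.

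In GRCm38, Cbfa2t2 (ENSMUSG00000038533) lies on the plus strand of chromosome 2 from 154436481 to 154539356, Cbfa2t3 (ENSMUSG00000006362) on the minus strand of chromosome 8 from 122625141 to 122699109, and Runx1t1 (ENSMUSG00000006586) on the plus strand of chromosome 4 from 13743436 to 13893649. RefSeq promoter windows of 300 bases (GRCm38.p6) matched 2 of the 3 genes, with 1 window for Cbfa2t2 and 2 for Cbfa2t3, which has an upstream and an internal start. They are printed 5′ to 3′ on the gene's strand because proneural factors bind E-boxes, and capitals mark each match to the E-box letters CANNTG, which read the same on both strands.
Cbfa2t3 upstream start, chr8:122699060-122699359, minus strand: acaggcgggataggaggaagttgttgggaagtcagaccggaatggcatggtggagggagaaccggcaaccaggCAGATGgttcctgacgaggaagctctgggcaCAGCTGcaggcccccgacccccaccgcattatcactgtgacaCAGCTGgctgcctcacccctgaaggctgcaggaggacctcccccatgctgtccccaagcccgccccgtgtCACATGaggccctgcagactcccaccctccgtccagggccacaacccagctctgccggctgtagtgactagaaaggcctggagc
Cbfa2t3 internal start, chr8:122678126-122678425, minus strand: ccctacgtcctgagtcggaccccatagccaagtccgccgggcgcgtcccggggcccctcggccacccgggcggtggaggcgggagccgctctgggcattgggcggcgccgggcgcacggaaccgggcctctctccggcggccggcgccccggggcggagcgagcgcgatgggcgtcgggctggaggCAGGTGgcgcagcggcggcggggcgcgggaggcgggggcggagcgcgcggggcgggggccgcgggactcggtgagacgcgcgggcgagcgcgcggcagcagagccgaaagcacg
Cbfa2t2 start, chr2:154436234-154436533, plus strand: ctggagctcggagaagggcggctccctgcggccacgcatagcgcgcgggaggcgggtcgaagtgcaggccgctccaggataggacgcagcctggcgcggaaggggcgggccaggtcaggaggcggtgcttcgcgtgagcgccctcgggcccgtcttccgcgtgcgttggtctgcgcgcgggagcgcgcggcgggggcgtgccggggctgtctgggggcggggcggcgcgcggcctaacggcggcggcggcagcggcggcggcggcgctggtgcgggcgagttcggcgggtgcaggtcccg
The upstream Cbfa2t3 window held 4 matches that did not overlap each other, 2 of them CAGCTG and 1 CAGATG. Of 32851 windows of this length in the table, 6.49% held at least 4 matches and 72.3% at least 1, 16.3% held CAGCTG, and 17.2% held CAGATG or its reverse complement CATCTG. The internal window held 1 match, CAGGTG, and the Cbfa2t2 window held 0. The 2 GC-rich windows (81.7% at the internal Cbfa2t3 start and 79.0% at Cbfa2t2) differed in this from the upstream one (63.7%). Counts per gene do not tell which start was used, and a match is only a run of letters.

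After 3 libraries with fewer than 1000000 gene counts were left out, 58 libraries remained and repeats of the same sample were summed to 32 samples, 17 Ngn3-positive and 15 Ngn3-negative, with 2 or 3 per condition and 2579583 to 19461008 gene counts each. Levels are CPM (counts scaled to 1000000 per library) on TMM-scaled totals, on which 3 counts are worth 0.136 to 1.01 CPM. Neurog3, the gene of the Ngn3 vector, was at 7.87 to 329 CPM in the Ngn3-positive and at 0 to 0.788 CPM in the Ngn3-negative samples. All 6 duct markers were detected in both, at a summed 3200 to 5591 CPM without Ngn3 and 1378 to 3948 CPM with it, and 5 endocrine markers summed to 0.843 to 7.60 CPM without Ngn3 and to 287 to 12688 CPM with it. Markers of blood cells, which also express Cbfa2t3, summed to at most 9.24 CPM in any Ngn3-positive sample with Gata1 at 0 in all 32, and endothelial markers to at most 27.0 CPM in 6SA Ngn3 with Pdx1 replicate 1 and 3.36 CPM in all others. In pools of cells, fewer cells of a type and less RNA per cell cannot be told apart.

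Cbfa2t2 was the family's transcript in duct cells without Ngn3. Among the 15 Ngn3-negative samples it ran from 18.4 to 85.6 CPM with a median of 42.5. Its condition means lay between 35.9 ± 22.3 CPM (SD, n = 3) in Pdx1 with MafA cells of 6SA cultures and 62.0 ± 23.5 CPM (n = 2) in MafA cells of WT cultures. Cells with Pdx1 did not differ from cells with MafA beyond the spread (log2 fold change -0.11 ± 0.48 SE, edgeR adjusted p = 1.00), nor did Ngn3-negative cells of 6SA cultures from those of WT cultures (-0.15 ± 0.37, edgeR adjusted p = 1.00).

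Cbfa2t3 and Runx1t1 were close to absent from the same cells. Cbfa2t3 was counted 110 times in the 15 samples together, which pools to 0.790 CPM with an exact 95% Poisson interval of 0.649 to 0.952 CPM. It had 0 counts in 4 samples and at most 3 in 8, and the highest level, 2.79 CPM from 31 counts, was in Pdx1 cells of WT cultures replicate 1. Runx1t1 was counted 11 times in all, which pools to 0.0790 CPM (exact Poisson interval 0.0394 to 0.141), with 0 counts in 9 samples and at most 4 in any. These intervals cover counting error only, since amplified reads are not separate molecules. For Cbfa2t3 neither Pdx1 against MafA (log2 fold change -0.20 ± 0.71) nor 6SA against WT cultures (-0.31 ± 0.65) passed the edgeR test (adjusted p = 1.00 for both), and Runx1t1 had too few counts to compare.

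With Ngn3, all 3 transcripts were higher. Cbfa2t3 stood at 55.3, 48.2 and 14.4 CPM in the 3 samples of WT Ngn3 with Pdx1, at 32.9, 33.4 and 23.6 CPM with MafA, and at 144, 88.1 and 49.9 CPM with both. In 6SA cultures it stood at 86.9, 55.3 and 41.7 CPM in Ngn3 with Pdx1, at 68.7, 87.4 and 36.2 CPM with MafA, and at 122 and 104 CPM in the 2 samples with both. The lowest Ngn3-positive sample was thus above the highest Ngn3-negative one, and the means were 64.2 ± 36.1 CPM (n = 17) and 0.676 ± 0.758 CPM (n = 15), a ratio of 94.9. The fitted Ngn3 effect, the mean of the 6 pairs of conditions that differ only in the Ngn3 reporter, was a log2 fold change of 6.59 ± 0.45 SE for Cbfa2t3.

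Runx1t1 went from a few counts to levels like those of Cbfa2t3. It was at 114, 82.3 and 6.07 CPM in WT Ngn3 with Pdx1, at 36.4, 21.5 and 8.62 CPM with MafA, and at 98.1, 149 and 46.5 CPM with both. In 6SA cultures it was at 130, 74.2 and 44.4 CPM in Ngn3 with Pdx1, at 63.4, 105 and 2.60 CPM with MafA, and at 97.6 and 159 CPM with both. Every Ngn3-positive sample was above every Ngn3-negative one here too, although the lowest, at 17 counts, was 61.2-fold below the highest. The mean of the 17 samples was 922-fold the pooled Ngn3-negative level, with a counting interval of 516 to 1848 that comes from the 11 counts alone.

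Cbfa2t2 was raised on top of a level it already had. It was at 136, 68.1 and 47.1 CPM in WT Ngn3 with Pdx1, at 115, 89.9 and 53.2 CPM with MafA, and at 159, 155 and 64.1 CPM with both. In 6SA cultures it was at 242, 91.3 and 68.7 CPM in Ngn3 with Pdx1, at 143, 162 and 40.6 CPM with MafA, and at 194 and 258 CPM with both. The ranges of the groups overlapped, with 11 of 17 Ngn3-positive samples above the highest Ngn3-negative sample. The means were 123 ± 66.6 CPM and 49.1 ± 21.2 CPM, a ratio of 2.50, and the fitted Ngn3 effect was 1.29 ± 0.26 SE on the log2 scale.

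These differences chose the family and carry no test. Over all 24004 genes tested, 11.1% were called higher and 10.5% lower in the Ngn3 effect (edgeR, adjusted p under 0.05), 0.542% had every Ngn3-positive sample above every Ngn3-negative one, and 0.15% the reverse. The median log2 fold change over all genes was 0.07 with TMM, 0.15 with RLE size factors and 0.28 with plain totals, shifts that are small beside the changes of Cbfa2t3 and Runx1t1. With RLE and plain totals the called genes divided into 3009 higher and 2191 lower and into 3623 and 1674, against 2658 and 2510 with TMM.

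**Figure D1:**
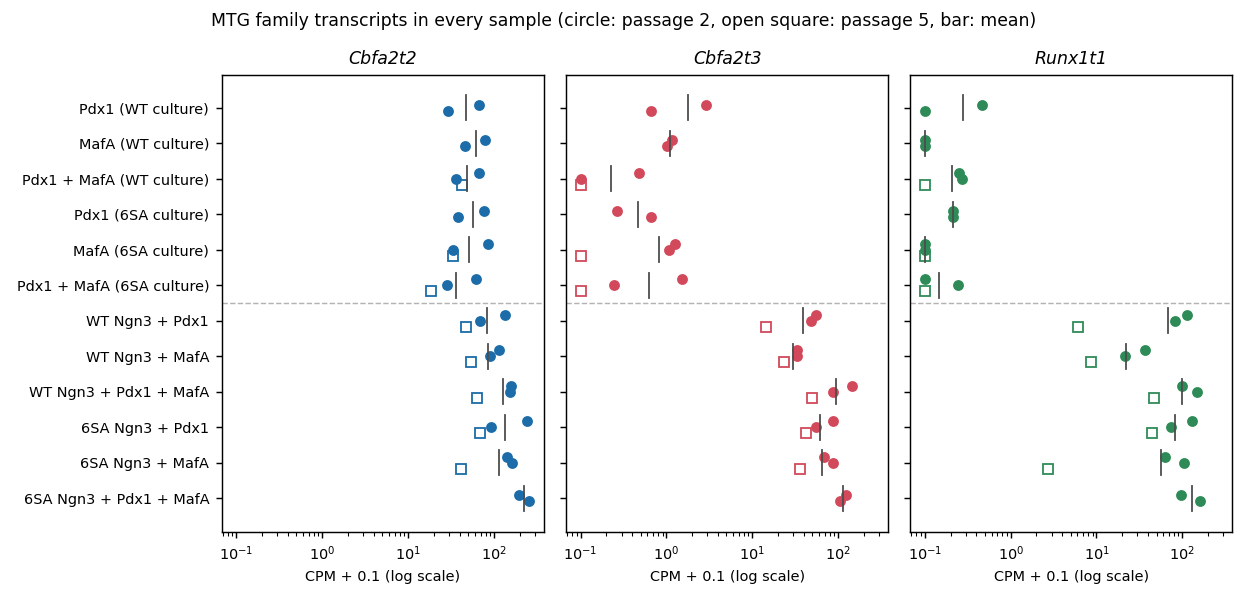
Level of each MTG transcript in each of the 32 samples, as CPM + 0.1 on a shared log axis, with 1 row per condition, filled circles for passage 2, open squares for passage 5 and a bar at the condition mean. Below the dashed line are the Ngn3-positive conditions, in which Cbfa2t3 lies at 14.4 CPM or more and Runx1t1 at 2.60 CPM or more, while above it they do not exceed 2.79 and 0.361 CPM.

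The make-up of the family changed with Ngn3 from almost a single gene to 3. To compare genes, CPM was divided by the length of all annotated exons merged, 8650 bases for Cbfa2t2, 8373 for Cbfa2t3 and 7959 for Runx1t1. Per kilobase, Cbfa2t2 made up a median of 98.6% of the family in Ngn3-negative samples (range 95.3 to 100%), Cbfa2t3 1.37% and Runx1t1 0%. In Ngn3-positive samples the medians were 45.5%, 24.6% and 29.8%. Cbfa2t2 was still the highest of the 3 in 15 of 17 Ngn3-positive samples and Runx1t1 in the other 2, WT Ngn3 with Pdx1 replicate 2 and WT Ngn3 with both replicate 2. The summed family level was 5.77 ± 2.50 CPM per kb (n = 15) without Ngn3 and 31.0 ± 17.1 CPM per kb (n = 17) with it.
The share of Runx1t1 was the least even, from 3.49 to 43.1% over the Ngn3-positive samples, against 18.02 to 46.3% for Cbfa2t3. Both the lowest Runx1t1 share and the highest Cbfa2t3 share belonged to 6SA Ngn3 with MafA replicate 3.

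**Figure D2:**
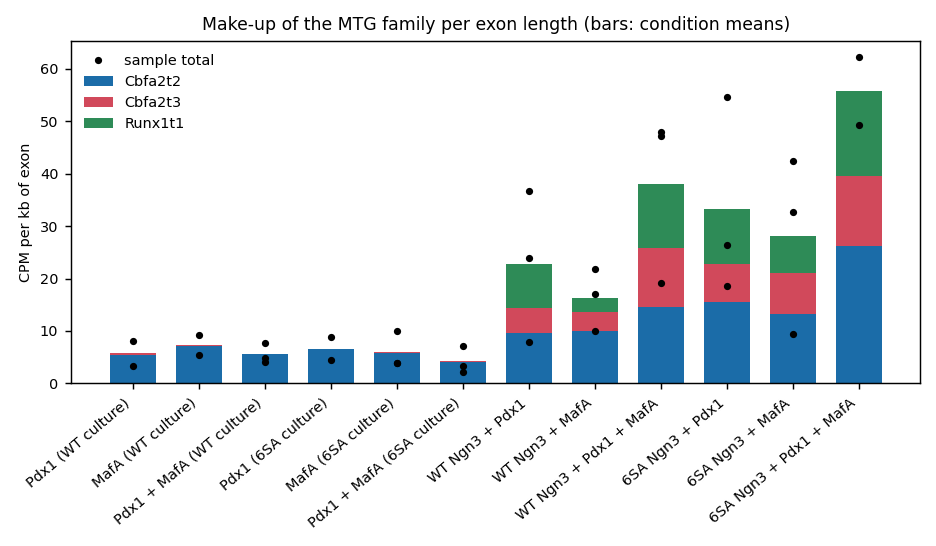
Condition means of the 3 genes stacked, in CPM per kb of exon, with a dot at the family total of each sample. The Ngn3-negative bars are nearly all Cbfa2t2, and the tallest bar, 6SA Ngn3 with Pdx1 and MafA, reaches 55.7 CPM per kb.

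Whether the phospho-mutant form moved the family further than wild-type Ngn3 was not part of how the genes were chosen. In each of the 3 combinations the 6SA mean was above the WT mean for all 3 genes, by 1.34 to 1.79 times for Cbfa2t2, 1.20 to 2.14 times for Cbfa2t3 and 1.22 to 2.57 times for Runx1t1. Replicates overlapped in 7 of these 9 sets and did not for Cbfa2t3 beside MafA or for Cbfa2t2 beside both factors. The share of all genes without overlap in such sets was not counted. The 1 passage 5 sample of 6SA cells with both factors was left out for depth, at 408733 gene counts. In the other Ngn3-positive conditions replicate 3 was the lowest for all 3 genes. On plain totals the left-out sample had Cbfa2t3 at 154 CPM, above the 132 and 123 CPM of replicates 1 and 2. Its Cbfa2t2 (100.3 CPM) and Runx1t1 (29.4 CPM) were below both. Over the passage 2 samples alone (n = 2 in each group), the cells with both factors averaged 113 CPM of Cbfa2t3 in 6SA and 116 CPM in WT cultures, a ratio of 0.973, so the direction turned. The ratio there was 1.04 for Runx1t1 and 1.44 for Cbfa2t2. Averaged over combinations, the log2 fold changes were 0.65 ± 0.34 SE for Cbfa2t2, 0.67 ± 0.43 for Cbfa2t3 and 0.68 ± 0.52 for Runx1t1. None passed the edgeR test, with adjusted p = 0.866, 0.910 and 0.958. By edgeR 0 of 24004 genes (0%) passed in this comparison, with 1421 at an unadjusted p under 0.05, and DESeq2 called 26.

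The change with Ngn3 was also compared between the kinds of culture and between the factors beside Ngn3, as interactions. The Ngn3 effect on Cbfa2t2 was larger in 6SA than in WT cultures by 0.80 ± 0.51 SE on the log2 scale and that on Cbfa2t3 by 0.97 ± 0.77, and neither difference passed (edgeR adjusted p = 1.00 for both). Beside Pdx1 against beside MafA the differences were 0.20 ± 0.63 for Cbfa2t2 and 0.36 ± 0.88 for Cbfa2t3 (edgeR adjusted p = 1.00 for both). These 2 interactions and the 2 comparisons of Ngn3-negative cells likewise had 0% of genes called by edgeR, with 591 to 820 genes at an unadjusted p under 0.05 and 5 to 25 called by DESeq2. For Runx1t1 the interactions rest on the 11 counts of the Ngn3-negative samples and no value is given.

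By condition mean, the family level was highest in cells with all 3 factors, at 55.7 CPM per kb in 6SA and 38.1 in WT cultures. Single samples overlapped. A sample of 6SA Ngn3 with Pdx1 reached 54.6 CPM per kb, above the lower 6SA 3-factor sample (49.2) and every WT one (47.9 or less). Adding Pdx1 to Ngn3 with MafA, every 3-factor sample was above every Ngn3 with MafA sample for Cbfa2t3, in WT cultures (49.9 CPM or more against 33.4 or less) and in 6SA cultures (104 or more against 87.4 or less). For Runx1t1 this was so in WT cultures, at 46.5 CPM or more against 36.4 or less, while the 6SA samples overlapped. How many of all genes separated in the same way was not counted, so these separations are descriptions. The log2 fold changes were 1.65 ± 0.65 SE for Runx1t1, 1.23 ± 0.54 for Cbfa2t3 and 0.76 ± 0.43 for Cbfa2t2. None passed the edgeR test in the main fit (adjusted p = 0.162, 0.209 and 0.345), in a comparison with 2.72% of all genes called. With replicate number as a block, Runx1t1 passed (1.66, edgeR adjusted p = 0.0165) while Cbfa2t3 and Cbfa2t2 did not (edgeR adjusted p = 0.115 and 0.102). The block called 2038 genes, against 654 in the main fit. The adjusted p of Runx1t1 ranged from 0.00181 to 0.703 over the alternative settings and that of Cbfa2t3 from 0.0384 to 0.661, so their side of the threshold depended on the setting.

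Adding MafA to Ngn3 with Pdx1 gave the same sign with smaller differences relative to their errors. Cbfa2t3 differed by 1.07 ± 0.54 SE on the log2 scale, Cbfa2t2 by 0.67 ± 0.43 and Runx1t1 by 0.58 ± 0.64, and none passed the edgeR test (adjusted p = 0.344, 0.484 and 0.752). Of all genes, 1.88% were called in this comparison. Without replicate 1 Cbfa2t2 differed by 1.33 and passed (edgeR adjusted p = 0.0441, range over the alternatives 0.0441 to 1.00). Ordered by mean, Cbfa2t3 was at 113 ± 12.8 CPM in 6SA (n = 2, both of passage 2) and 93.9 ± 47.2 CPM in WT 3-factor cells (n = 3), an order that reverses over passage 2 alone, then at 64.1 ± 25.9 and 61.3 ± 23.2 CPM in 6SA Ngn3 with MafA and with Pdx1, and at 39.3 ± 21.8 and 30.0 ± 5.52 CPM in WT Ngn3 with Pdx1 and with MafA. The neighbours within each of these pairs differed by less than the larger of their SDs.

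**Figure D3:**
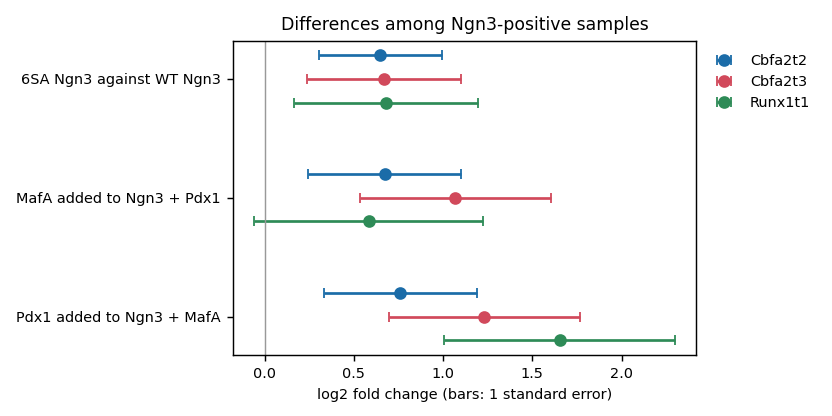
Log2 fold changes of the 3 genes in the 3 comparisons among Ngn3-positive samples, with bars of 1 standard error. All 9 points lie above 0, from 0.58 to 1.65, and none passed the edgeR threshold in the main fit.

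The samples of replicate 3 stood apart, and the labels give passage 5 for them and passage 2 for replicates 1 and 2. Replicate 3 was the lowest of its condition for Cbfa2t2, Cbfa2t3 and Runx1t1 in 5 of the 5 Ngn3-positive conditions that kept it. In 6SA cells with both factors, where it was left out for depth, its Cbfa2t3 was the highest, at 154 CPM on plain totals. Its Cbfa2t2 and Runx1t1 were the lowest there. Among Ngn3-negative conditions replicate 3 was the lowest for Cbfa2t2 in 2 of 3. At passage 5 the Ngn3-positive mean was 54.8 CPM for Cbfa2t2, 33.2 for Cbfa2t3 and 21.6 for Runx1t1 (n = 5), and at passage 2 it was 151, 77.1 and 94.2 CPM (n = 12). Neurog3 itself averaged 23.8 CPM at passage 5 and 141 CPM at passage 2. With 1 replicate number at passage 5, passage and replicate cannot be told apart.
The difference from Ngn3-negative cells, which chose the family, is described here within each passage and without a test. Cbfa2t2 was 2.82 times higher with Ngn3 at passage 2 and 1.75 times at passage 5 (5 against 3 samples). Cbfa2t3 and Runx1t1 had 0 counts in the 3 Ngn3-negative samples of passage 5, and the ratio of means at passage 2 was 91.2 for Cbfa2t3. Runx1t1 was the gene with the widest drop, from 2.29-fold in 6SA Ngn3 with Pdx1 to 32.4-fold in 6SA Ngn3 with MafA, taking the mean of replicates 1 and 2 over replicate 3.

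Over all 17 Ngn3-positive samples the 3 genes correlated with the Neurog3 transcript, which counts vector and endogenous RNA together. The 17 were taken without regard to passage or replicate number, and Neurog3 and all 3 genes averaged lower at passage 5. Only Cbfa2t2 stayed past the threshold both within passage 2 and with replicate number as a block. How many of all genes correlated as strongly with Neurog3 was not counted. On log2(CPM + 1), Pearson's r with Neurog3 was 0.851 for Cbfa2t2 (two-sided permutation p = 3e-05, adjusted over the 3 genes 9e-05), 0.736 for Cbfa2t3 (permutation p = 0.00073, adjusted 0.0011) and 0.637 for Runx1t1 (permutation p = 0.00544, adjusted 0.00544). Spearman's rho was 0.850, 0.657 and 0.694 (permutation p = 4e-05, 0.00482 and 0.00255, adjusted 0.00012, 0.00482 and 0.00382). Without the 2 samples farthest from the median of Neurog3, r was 0.795, 0.589 and 0.480. Within WT cultures r was 0.816, 0.671 and 0.565 (n = 9), and within 6SA cultures 0.922, 0.843 and 0.708 (n = 8).
The relation was not equally firm within passage 2. Over its 12 samples r was 0.704 for Cbfa2t2, 0.507 for Cbfa2t3 and 0.203 for Runx1t1 (permutation p = 0.0116, 0.0948 and 0.534, adjusted 0.0349, 0.142 and 0.534). Passage 5 held 5 samples, too few for a correlation. Without replicate 1 r of Runx1t1 was 0.567 (permutation p = 0.0692, adjusted 0.0692). The relation of Runx1t1 with Neurog3 thus rested on the passage 5 samples. That of Cbfa2t3 was no longer past the threshold without the passage 5 samples, while that of Cbfa2t2 still passed it. With replicate number as a block, r was 0.635 for Cbfa2t2, 0.492 for Cbfa2t3 and 0.180 for Runx1t1 (permutation p = 0.00632, 0.0458 and 0.488, adjusted 0.0190, 0.0687 and 0.488). Only Cbfa2t2 was past the threshold there.

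**Figure D4:**
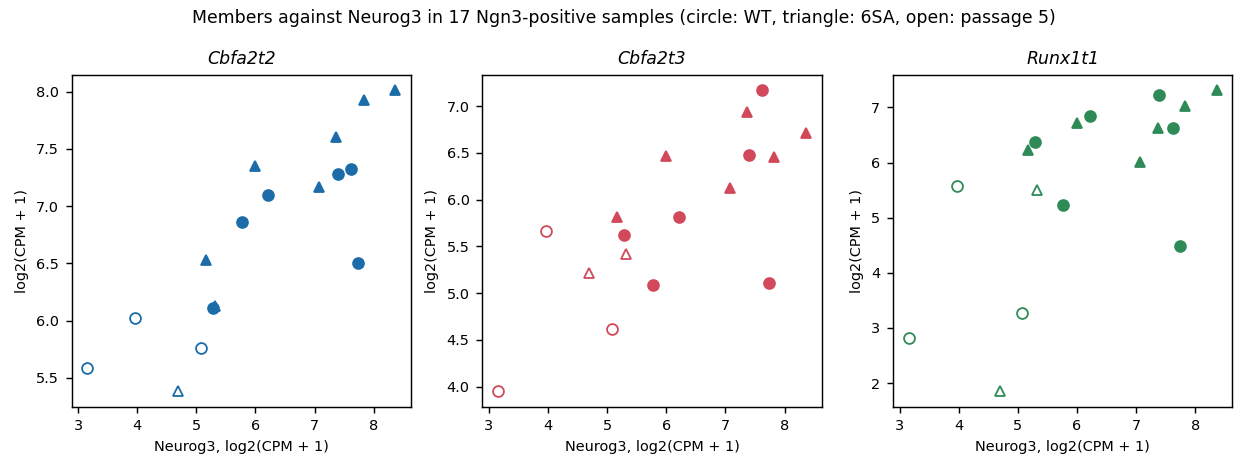
Each MTG transcript against Neurog3 in the 17 Ngn3-positive samples, both as log2(CPM + 1), with circles for WT cultures, triangles for 6SA cultures and open symbols for passage 5. The open symbols lie at the lower left of each panel, and among the filled ones Runx1t1 shows little slope (r = 0.203) next to Cbfa2t2 (r = 0.704).

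The 3 genes also varied together among Ngn3-positive samples. Pearson's r on log2(CPM + 1) was 0.825 for Cbfa2t2 with Cbfa2t3, 0.840 for Cbfa2t2 with Runx1t1 and 0.810 for Cbfa2t3 with Runx1t1 over 17 samples, and 0.734, 0.626 and 0.759 over the 12 of passage 2. These points share libraries and Neurog3 level, and the values are descriptions.
Repeat pools of 50 cells of the same sample gave a second measure of spread. Over the 8 Ngn3-positive samples with repeat libraries, the SD between repeats on the log2 scale was 0.486 for Cbfa2t2, 0.735 for Cbfa2t3 and 0.339 for Runx1t1. Between biological replicates it was 0.875, 0.725 and 1.67. Cbfa2t3 thus varied about as much between pools of a sample as between replicates, up to 4.25-fold between repeats, whereas Runx1t1 varied by at most 1.81-fold between pools.

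Of the machinery that MTG proteins recruit, 3 of 10 transcripts passed the test with Ngn3. The edgeR test of the Ngn3 effect is given here for genes outside the family. Of the 10 corepressor complex genes, 1 rose and 2 fell, where 11.1% of all genes were called higher and 10.5% lower, and their median log2 fold change was 0.04 against 0.07 over all genes. Tbl1xr1, an NCoR complex subunit, fell by 1.00 on the log2 scale (SE 0.19, edgeR adjusted p = 0.000296), from 59.6, 93.1 and 157 CPM (lowest, median and highest of the Ngn3-negative samples) to 23.0, 46.3 and 102 CPM. The deacetylase Hdac1 fell by 0.63 (SE 0.14, edgeR adjusted p = 0.00143) and the scaffold Sin3b rose by 0.54 (SE 0.19, edgeR adjusted p = 0.0426), and both were past the threshold in 9 of 12 alternatives. Hdac3, the deacetylase of the NCoR complex, had a log2 fold change of -0.31 (SE 0.14), and the scaffold Ncor1 had 0.33 (SE 0.12), and edgeR passed neither of them (adjusted p = 0.138 and 0.0521).

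Of 16 DNA-binding partners 14 were tested, 2 rose and 2 fell, near the 11.1% and 10.5% of all genes, with a median of 0.42. Among the E proteins, Tcf4 rose by 0.91 on the log2 scale (SE 0.25, edgeR adjusted p = 0.00894), from a median of 33.6 CPM to 51.1 CPM with overlapping ranges. Tcf3 and Tcf12 had 0.22 (SE 0.18) and 0.21 (SE 0.21), at adjusted p values by edgeR of 0.481 and 0.629. Zbtb16, a zinc-finger repressor, rose by 5.94 (SE 1.09, edgeR adjusted p = 0.000363) but was low throughout, at 0 to 5.57 CPM with Ngn3 and 0 to 0.922 CPM without. The repressor Bcl6 fell by 1.08 (SE 0.25, edgeR adjusted p = 0.00218) and the Wnt effector Tcf7l2 fell by 0.82 (SE 0.19, edgeR adjusted p = 0.00158). Gfi1b and Prdm14 were too low to test.

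Proneural and Notch genes had the largest median of the 4 lists, 4.28. Of 10, 8 were tested, 5 rose and 0 fell. These numbers and the median count Neurog3, whose rise was set by sorting on its reporter. Without Neurog3 the middle value of the list is that of Hes6, 1.83. Besides Neurog3 itself (log2 fold change 8.63, SE 0.61), which the vector supplies, these were its target Neurod1 (10.3, SE 0.56), the zinc-finger repressor Insm1 (7.70, SE 0.60), the Hes1 antagonist Hes6 (1.83, SE 0.17) and the Notch ligand Dll4 (6.74, SE 0.87), with edgeR adjusted p of 2.75e-06 or lower. Hes6, unlike the others, had a high level before, and its ranges did not overlap, at 41.0 to 111 CPM without and 131 to 520 CPM with Ngn3. Hes1, Hey1 and Dll1 were not past the threshold, and Atoh1 was too low to test. Of the 4 RUNX and CBFB genes, Cbfb, the common RUNX partner, rose by 0.86 (SE 0.24, edgeR adjusted p = 0.00951) and Runx2 fell by 1.11 (SE 0.30, edgeR adjusted p = 0.00762), while Runx1 and Runx3 did not pass. Runx2 was past the threshold in 10 of 12 alternatives, and Cbfb, Tcf4, Bcl6, Tcf7l2 and Zbtb16 in 11 each.
Over the 4 lists 9 of 36 genes tested rose, Neurog3 among them, and 5 fell, against the 11.1% and 10.5% of all genes given above. Without replicate 1 or without replicate 2, 2 fell.

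**Figure D5:**
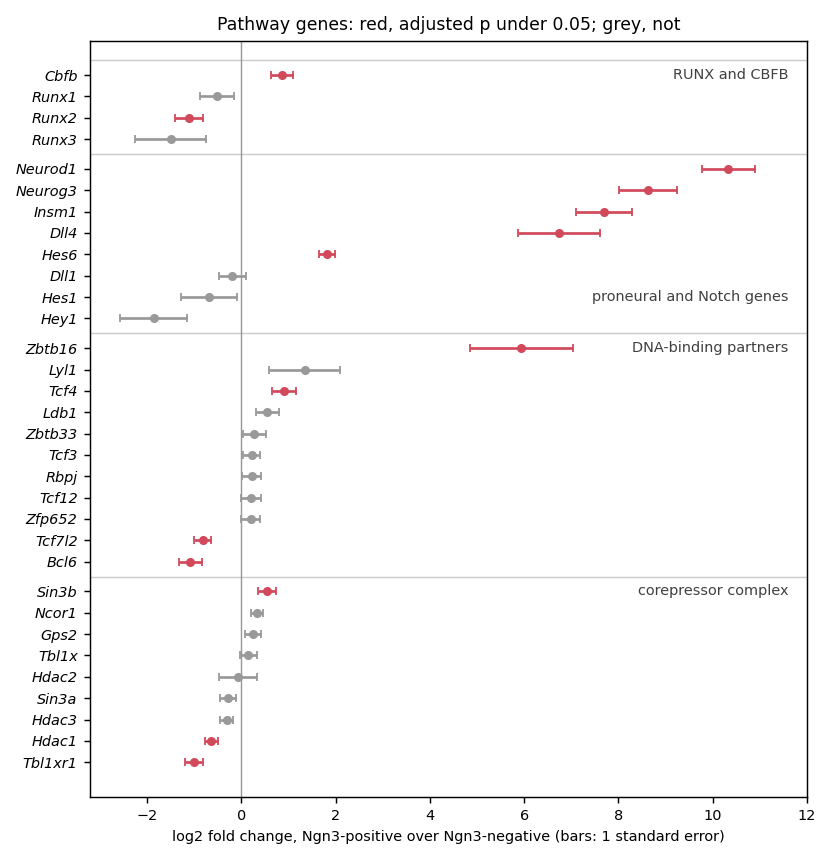
Log2 fold change of 32 of the 36 pathway genes tested between Ngn3-positive and Ngn3-negative cells, with bars of 1 standard error, in 4 lists, red where the edgeR adjusted p was under 0.05. Those not drawn include Tal1, Lmo2 and Gfi1, which had no usable standard error. The points of the corepressor complex lie between -0.995 and 0.54, while those of Neurod1, Neurog3, Insm1 and Dll4 lie above 6.

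In the comparisons among Ngn3-positive cells and among Ngn3-negative cells, 1 of 36 pathway genes passed, when Pdx1 was added. In that comparison 2.72% of all genes were called. Lmo2, which bridges E proteins and Ldb1 and was picked out after its values were seen, was higher when Pdx1 was added to Ngn3 with MafA (log2 fold change 7.24 ± 1.65 SE, edgeR adjusted p = 0.0201). It was at 20.3, 10.2 and 0 CPM in the WT and at 9.70 and 4.86 CPM in the 6SA 3-factor samples, and at 0 to 0.519 CPM in Ngn3 with MafA cells. The call was not kept without replicate 1 or without replicate 2, fits that leave 1 sample of 6SA 3-factor cells. The log2 fold changes there were 6.12 and 8.11. With the first technical repeat only the log2 fold change was 6.37 and the call was not kept either (edgeR adjusted p = 0.0558). The lowest adjusted p over the alternatives was 9.98e-06, by edgeR without a gene filter.

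The genes whose pattern was most like each MTG gene were taken as the 10 with the highest Pearson r on log2(CPM + 1) over all 32 samples, in which the difference made by Ngn3 sets most of r. For Cbfa2t3 they were Nefm, Neurod1, Ptprn2, Kcnb2, Rfx6, Scgn, Chga, Scg3, Efcab1 and St18, with r from 0.972 to 0.982. They include a neurofilament (Nefm), 2 endocrine transcription factors (Neurod1 and Rfx6) and granule proteins (Chga, Scg3 and Ptprn2). Within the 17 Ngn3-positive samples their r with Cbfa2t3 was 0.615 to 0.873, and the best placed of them there was 71st among all genes.
For Runx1t1 they included Rimbp2, St18, Unc80, Myt1, Ptprn2, Efcab1, Hepacam2, Disp2 and Pcsk2, with r from 0.982 to 0.995. Rimbp2, a protein of secretory release sites, the zinc-finger factor St18, and the channel subunit Unc80 also had ranks 1, 2 and 3 within the Ngn3-positive samples alone (r = 0.978, 0.954 and 0.950). Efcab1, Ptprn2 and St18 were on both lists, 3 of 10 for each gene.
For Cbfa2t2 they were Acly, Stx1a, Mcf2l, Slc37a1, Lyrm9, Syt11, Agap3, Trp53inp2, Mapk8ip3 and Tbc1d9b, with r from 0.914 to 0.939 overall and 0.889 to 0.962 within the Ngn3-positive samples. Acly makes acetyl-CoA in the cytosol, and Stx1a and Syt11 belong to vesicle traffic. Like Cbfa2t2, these genes were expressed without Ngn3, from a mean of 3.40 CPM for Mcf2l to 297 CPM for Acly, and at 57.7 and 593 CPM with it.

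Other transcripts that share sequence or position with the family contributed little. The antisense gene Gm10612 shares 295 exon bases with Cbfa2t3 (3.52% of its merged exons) and had 0 counts in all libraries. The pseudogene Gm15899, in an intron of Cbfa2t3, had at most 27 counts in a library, and Cbfa2t2-ps1, a processed copy of Cbfa2t2, had 225 counts in all libraries together against 33094 for Cbfa2t2. Whether counting used strand was not stated.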

How the data were processed

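RNA was sequenced from pools of 50 sorted cells. Reads were mapped by the authors with GSNAP to mm10 and assigned to genes with HTSeq (0.5.3p3, per the submitters' processing notes). The authors deposited raw read counts per gene and library. Summary rows that name no gene held 41.7% of all counts in the table (no feature 14.7%, ambiguous 7.23%) and were left out. Symbols matched 45143 of 46078 genes.

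Libraries needed over 1000000 gene counts, under 25% spike-in counts and over 10000 detected genes, which kept 58 of 61. Depth per library was 241563 to 9736403 gene counts. Technical repeats were summed. A gene was tested (24004 genes) if 5 or more libraries detected it and its log2(CPM + 1) had a variance over 0.001. edgeR 4.0.16 in R 4.3.3 was run with TMM, the quasi-likelihood test (legacy fit) and Benjamini-Hochberg adjustment, in 1 model of 12 conditions, with a threshold of 0.05 and standard errors from the fold change and its F. Correlations had permutation p-values from 100000 resamples (scipy 1.17.1). DESeq2 1.42.0 and other settings were alternatives. The fit was tested on simulated data. Exons and positions are from a GRCm38 annotation and promoters from RefSeq.

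The 3 genes, the gene lists and the comparisons were chosen with earlier results of these data known. Named were the 3 genes, pathway genes past the threshold in the Ngn3 effect, Hdac3, Ncor1, Tcf3, Tcf4 and Tcf12 in any case, and the 10 genes most like each. A few listed genes are counted but not reported here by name. Lmo2, and listed genes named without values because they did not pass or were too low, are outside that rule. Replicate numbers are from the labels, which call them biological replicates without saying whether they came from separate animals, so p-values measure the spread between these samples. Same-numbered samples were compared for shared deviations over the 5000 most expressed genes. No 2 replicates were alike within sampling noise.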

Additional observations from a re-analysis of the deposited data

Results flagged for a closer look

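Each of the 3 libraries left out for depth held MTG counts above the highest level in any retained Ngn3-negative library, 90.9 CPM of Cbfa2t2, 5.99 of Cbfa2t3 and 0.649 of Runx1t1 on plain totals. All 3 came from cells with Ngn3, Pdx1 and MafA. In the first technical repeat of WT Ngn3 with both factors replicate 2, Cbfa2t2 was at 95.9 CPM, Cbfa2t3 at 197 CPM and Runx1t1 at 109 CPM. In the second repeat of 6SA Ngn3 with both factors replicate 2, Cbfa2t3 was at 174 CPM and Runx1t1 at 103 CPM, and Cbfa2t2 was not above the Ngn3-negative level. In 6SA Ngn3 with both factors replicate 3, the 1 passage 5 sample of this condition, Cbfa2t2 was at 100.3 CPM, Cbfa2t3 at 154 CPM and Runx1t1 at 29.4 CPM. Between 6 and 123 counts stand behind each value, at library totals of 241563 to 625650. Neither interaction passed the edgeR threshold for Cbfa2t2 or Cbfa2t3, and with 2 or 3 samples per condition no sample was tested for standing apart.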

How the results depend on the processing

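For the log2 fold changes of the 3 genes, 189 of 195 alternatives other than left-out replicates were labelled as unchanged. This means the same direction and the same side of the threshold. The Ngn3 effect of the 3 genes carried no test, so for it only the fold change was compared. When Pdx1 was added, Cbfa2t3 was past the threshold without edgeR's legacy fit (1.23). Runx1t1 was past it there without a gene filter (1.62) and with the replicate block (1.66). With the first technical repeat only, the direction turned for Cbfa2t3 in Pdx1 against MafA cells (3.51). It also turned for the interactions beside Pdx1 against beside MafA of Cbfa2t2 (-0.078) and Cbfa2t3 (-3.56). None of these 3 was past the threshold. The cause was not tested.

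Replicate numbers were not treated as pairs in the main fit, although same-numbered samples shared deviations. Of 160 same-numbered pairs of samples, 136 had deviations correlated above 0.1, with a median r of 0.42. Of 32 samples, 28 correlated best with their own number. The main fit takes no account of this, and the replicate block does. With the replicate block, Runx1t1 passed when Pdx1 was added (1.66, edgeR adjusted p = 0.0165), the calls were 1188 when MafA was added, 2038 when Pdx1 was added and 1 for Pdx1 against MafA without Ngn3, and r with Neurog3 was 0.492 for Cbfa2t3 and 0.180 for Runx1t1, no longer past the threshold. The block changed no other call of the 3 genes.

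Counts of genes called depended on the tool. For 6SA against WT Ngn3, DESeq2 called 26 and no gene filter 239; in Ngn3-negative cells 8 and 6; for MafA added 1371 and 1454, 880 without the legacy fit and 186 with only the conditions compared; for Pdx1 added 1948 and 1930, 1648 without the legacy fit and 321 with the first repeat only; for Pdx1 against MafA 24 and 113, and 123 with only the conditions compared; for the Ngn3 effect in 6SA against WT cultures 5 and 101; and beside Pdx1 against beside MafA 25 and 126.

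Leaving out 1 replicate number at a time, the Ngn3 effect ranged from 0.93 to 1.59 for Cbfa2t2, 6.49 to 7.67 for Cbfa2t3 and 10.34 to 10.50 for Runx1t1, with 2085 to 5074 genes called, fewest without replicate 2. The 6SA against WT difference ranged from 0.53 to 0.71, 0.49 to 0.75 and 0.47 to 0.96 (0 to 35 genes), and in Ngn3-negative cells from -0.28 to 0.057 for Cbfa2t2 and -0.90 to 0.51 for Cbfa2t3 (0 to 1 genes). MafA added gave 0.30 to 1.33, 0.87 to 1.20 and 0.21 to 1.30 (16 genes without replicate 2 to 1181 without replicate 1), and Pdx1 added 0.53 to 1.00, 1.03 to 1.50 and 1.29 to 2.15 (0 genes without replicate 2 to 999 without replicate 3). Pdx1 against MafA gave -0.20 to 0.051 and -0.39 to -0.33 for Cbfa2t2 and Cbfa2t3 (0 to 2 genes), the Ngn3 effect in 6SA against WT cultures 0.47 to 0.99 and 0.24 to 1.60 (0 to 4 genes), and beside Pdx1 against beside MafA -0.13 to 0.39 and 0.23 to 0.64 (0 to 6 genes). Pathway genes called ranged from 7 to 10 higher and 2 to 6 lower, and r with Neurog3 from 0.704 to 0.913 for Cbfa2t2, 0.203 to 0.755 for Runx1t1 and 0.507 to 0.860 for Cbfa2t3. Runx1t1 in Ngn3-negative cells was not compared because of its 11 counts, so changes there were not detectable at this depth.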

Other observations

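Cbfa2t3 counts in Ngn3-negative cells were concentrated in a few libraries. The most, 23 counts of 3838692, were in a repeat of Pdx1 cells of WT cultures replicate 1, which held 6 endocrine marker counts and 0 of Neurog3 and of Runx1t1. The next were 2 libraries with 11 counts, in Pdx1 with MafA and in MafA cells of 6SA cultures replicate 1, which held 44 and 23 endocrine marker counts. Mesenchymal markers summed to 110 CPM in WT Ngn3 with MafA replicate 1 and to at most 13.0 CPM in every other Ngn3-positive sample. In that sample Cbfa2t2 (115 CPM) and Runx1t1 (36.4 CPM) were the highest of their condition and Cbfa2t3 (32.9 CPM) was not, and the part of those cells in these values was not tested.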
